A study of Mus musculus with 4 samples.

Results

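Neural bHLH regulator genes encode basic helix-loop-helix (bHLH) transcription factors that commit progenitors of the nervous system to a fate. The 9 genes described here are Neurog1, Neurog2, Neurog3, Neurod1, Atoh1, Olig1, Olig2, Olig3 and Ptf1a. They were taken by name from the GENCODE vM1 annotation of the mouse genome mm9 and are 9 of its 22367 protein-coding genes, each with 1 transcription start site (TSS). Chromatin came from untreated mouse embryonic stem (mES) cells, which the labels give as the E14 line of strain 129P2/OlaHsd and the study's methods describe as wild-type cells derived from blastocysts, moved from feeder cells to gelatin before use. Histone H3 acetylated at lysine 9 (H3K9ac) was immunoprecipitated with a rabbit polyclonal antibody. H3 acetylated at lysine 14 (H3K14ac) was immunoprecipitated with the mouse monoclonal antibody 13HH3 in one library and 7G8 in another, and input DNA was the control. The libraries held 23181544 tags (mapped reads) for H3K9ac, 21626227 for 13HH3, 23837354 for 7G8 and 19313142 for input after repeats were removed. There was 1 library of each, so no difference has a replicate check. All intervals are exact 95% intervals and cover counting error only.

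The neurogenins (Neurog1, Neurog2, Neurog3), Neurod1 and Atoh1 are proneural activators: they pair with ubiquitous E proteins and bind the E-box, a short DNA element written CANNTG. Olig1, Olig2 and Olig3 are related bHLH factors known for oligodendrocyte, motor neuron and dorsal interneuron fates, and Ptf1a specifies inhibitory neurons and the pancreas. Id proteins hold E proteins in inactive pairs, and Hes and Hey repressors, which act under Notch signalling, keep proneural genes off. In embryonic stem cells these regulators are known as lineage genes that are mostly silent and held in a poised state at CpG-rich promoters. Acetylation of H3 at lysines 9 and 14 is usually found at active promoters.

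The 9 genes are short, from 1659 bp for Neurog1 to 4231 bp for Neurod1, and have 1 or 2 exon blocks each. They lie on chromosomes 2 (Neurod1 and Ptf1a), 3 (Neurog2), 6 (Atoh1), 10 (Neurog3 and Olig3), 13 (Neurog1) and 16 (Olig1 and Olig2). The TSS of Olig1 lies 44219 bp downstream of that of Olig2, so their windows do not overlap. At Neurod1 the start of Cerkl lies 34 bp upstream on the same strand, and tags there cannot be assigned to either gene. The start of the noncoding transcript Gm13336 lies 1011 bp downstream of the TSS of Ptf1a, on the other strand. The other genes had no further annotated start within 2 kb.

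Stretches of the mm9 sequence are shown for some of the promoters and for acetylated sites near these genes. The first set is the 250 bases before the TSS at Atoh1, Olig1, Olig2 and Olig3, from 5′ to 3′ on the gene's strand, which is the plus strand for all of them. Capitals mark CpG dinucleotides. They are shown as the sequence next to the TSS of genes with higher and lower point ratios of H3K9ac upstream. They are not themselves the sites of the upstream peaks. Of the intervals given next, that of Atoh1 lay clear of those of Olig1 and Olig3, and that of Olig2 overlapped both. Over 2 kb upstream, the log2 ratio of H3K9ac over input, with tags scaled by the library totals, was 1.64 (0.94 to 2.38) at Atoh1 and 1.17 (0.41 to 1.99) at Olig2, and it was 0.11 (-0.66 to 0.89) at Olig3 and -0.31 (-1.06 to 0.44) at Olig1.
Atoh1, chr6:64678890-64679139: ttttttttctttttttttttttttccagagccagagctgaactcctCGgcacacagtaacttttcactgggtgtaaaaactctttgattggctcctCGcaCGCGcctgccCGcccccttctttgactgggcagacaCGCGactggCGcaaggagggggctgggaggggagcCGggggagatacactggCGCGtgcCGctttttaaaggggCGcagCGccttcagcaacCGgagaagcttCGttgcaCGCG
Olig1, chr16:91269764-91270013: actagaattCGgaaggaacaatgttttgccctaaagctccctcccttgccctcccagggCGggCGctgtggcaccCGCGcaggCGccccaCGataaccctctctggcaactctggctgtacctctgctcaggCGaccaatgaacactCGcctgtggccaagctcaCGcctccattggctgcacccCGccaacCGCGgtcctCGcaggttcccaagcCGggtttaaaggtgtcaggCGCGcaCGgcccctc
Olig2, chr16:91225545-91225794: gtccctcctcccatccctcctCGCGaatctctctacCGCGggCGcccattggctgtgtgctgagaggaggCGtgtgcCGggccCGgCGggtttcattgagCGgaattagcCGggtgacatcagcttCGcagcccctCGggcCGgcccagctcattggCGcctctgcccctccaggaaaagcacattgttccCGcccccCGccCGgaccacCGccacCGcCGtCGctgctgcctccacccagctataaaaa
Olig3, chr10:19076116-19076365: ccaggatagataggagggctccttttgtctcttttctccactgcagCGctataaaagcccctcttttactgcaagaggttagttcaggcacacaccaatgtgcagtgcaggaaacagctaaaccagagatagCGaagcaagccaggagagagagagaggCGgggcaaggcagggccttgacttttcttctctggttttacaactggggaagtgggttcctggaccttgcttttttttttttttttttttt
CpGs numbered 18 at Atoh1, 18 at Olig1, 22 at Olig2 and 3 at Olig3, against a median of 8 over all 22367 promoters of this length, of which 92.5% held at least 1. The E-box letters CANNTG, which read alike on both strands, were found in these 250 bases at 4 of the 9 genes (Neurog1, Neurog3, Neurod1 and Olig3) and at 63.5% of all promoters.

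The second set shows 2 acetylated sites outside the promoters. The coding stretch of Olig3 under its H3K9ac peak, again with CpGs in capitals, holds 24 CpGs in 300 bases and had 23 H3K9ac tags, 17 of 13HH3, 11 of 7G8 and 6 of input.
Olig3 coding exon, chr10:19076954-19077253: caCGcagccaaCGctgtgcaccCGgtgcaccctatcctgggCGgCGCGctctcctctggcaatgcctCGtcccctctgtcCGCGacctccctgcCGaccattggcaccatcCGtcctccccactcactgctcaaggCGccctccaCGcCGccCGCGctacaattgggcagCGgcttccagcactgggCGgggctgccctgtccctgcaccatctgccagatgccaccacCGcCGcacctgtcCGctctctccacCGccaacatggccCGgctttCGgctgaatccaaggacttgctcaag
The other is the middle of the H3K9ac peak 3′ of Atoh1, the one site near these genes with a peak in all 3 ChIP libraries. Capitals mark here the only CANNTG of this stretch, which reads CAGCTG.
Atoh1 3′ site, chr6:64684451-64684750: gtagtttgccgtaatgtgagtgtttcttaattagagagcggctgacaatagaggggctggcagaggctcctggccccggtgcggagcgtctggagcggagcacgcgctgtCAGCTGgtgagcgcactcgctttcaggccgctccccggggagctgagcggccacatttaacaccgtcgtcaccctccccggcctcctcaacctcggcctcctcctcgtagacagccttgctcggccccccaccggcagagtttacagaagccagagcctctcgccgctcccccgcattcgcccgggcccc
CANNTG was present in the central 300 bases of 78.2% of the 76908 H3K9ac peaks of the genome, and CAGCTG in 19.5%. A match in letters is not evidence of a bound site.

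Tags were counted within 2 kb on either side of the TSS and divided by the tags of the library, as normalised tags per 10000000. A log2 ratio over input is the log2 of the quotient of these values. The neurogenins had 40.6 to 57.8 normalised H3K9ac tags, against 24.3 to 31.6 for input. At Neurog1, the activator of sensory and cranial neurons, the values were 47.0 for H3K9ac, 28.2 for 13HH3, 23.5 for 7G8 and 24.3 for input. At Neurog2, which drives cortical and spinal neurogenesis, they were 57.8, 32.8, 26.0 and 24.8 in the same order. H3K9ac stood clear of input at both genes, with log2 ratios of 0.95 (0.44 to 1.48) at Neurog1 and 1.22 (0.73 to 1.72) at Neurog2, and with the library totals used here neither H3K14ac library did. Neurog3, known as the endocrine regulator of the pancreas, had 40.6 for H3K9ac, 33.8 for 13HH3, 32.7 for 7G8 and 31.6 for input. It was the member nearest to input, and its H3K9ac ratio of 0.36 (-0.12 to 0.85) was not distinguishable from input at this depth over the whole window. This call turned on the scaling and on the window: with totals taken from 10 kb bins without peaks, the ratio was 0.86 (0.38 to 1.35), and within 1 kb of the TSS it was 1.00 (0.30 to 1.74).

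Neurod1 and Atoh1 are relatives in sequence. Neurod1, which acts after the neurogenins in differentiating neurons, had 27.2 normalised tags for H3K9ac, 22.7 for 13HH3, 17.2 for 7G8 and 15.5 for input. These were the lowest values of any member in each of the 4 libraries. The H3K9ac ratio at Neurod1 was 0.81 (0.16 to 1.49), with no peak within 2 kb. Atoh1, the regulator of cerebellar granule cells and hair cells, had 70.8 for H3K9ac, 32.4 for 13HH3, 39.9 for 7G8 and 27.4 for input. Its H3K9ac ratio of 1.37 (0.91 to 1.84) was the highest of the members, a 2.58-fold excess over input. Atoh1 was also the only member whose 7G8 interval lay above input, at 0.54 (0.04 to 1.05), while its 13HH3 ratio was 0.24 (-0.30 to 0.78).

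The Olig genes all had H3K9ac above input, and only Olig2 had an H3K14ac interval above it, for 13HH3. Their intervals over input overlapped within each H3K14ac library. Olig1, which acts in oligodendrocyte maturation, had 78.1 normalised tags for H3K9ac, 29.6 for 13HH3, 35.2 for 7G8 and 32.1 for input. It had the most H3K9ac tags of the members and the lowest 13HH3 ratio, with log2 ratios of 1.28 (0.86 to 1.72) and -0.12 (-0.64 to 0.41). Olig2, the regulator of motor neuron and oligodendrocyte precursors, had 60.4 for H3K9ac, 46.2 for 13HH3, 25.2 for 7G8 and 30.0 for input. The 13HH3 ratio at Olig2 was 0.62 (0.14 to 1.11), with the interval above input, and its 7G8 ratio of -0.26 (-0.80 to 0.29) was the lowest of the members. Olig3, active in the dorsal spinal cord, had 57.4, 35.1, 29.8 and 28.5 in the same order. Its ratios were 1.01 (0.55 to 1.49) for H3K9ac, 0.30 (-0.22 to 0.83) for 13HH3 and 0.06 (-0.46 to 0.60) for 7G8, so H3K9ac alone was clear of input over this window. Within 1 kb of the TSS, the 13HH3 ratio of Olig3 was 1.11 (0.40 to 1.86) and clear of input as well.

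Ptf1a had 54.8 normalised tags for H3K9ac, 45.8 for 13HH3, 30.6 for 7G8 and 26.9 for input. With Olig2 it was the other member whose 13HH3 interval lay above input, at 0.77 (0.27 to 1.28), which was the highest 13HH3 ratio of the 9. Its H3K9ac ratio was 1.02 (0.55 to 1.52) and its 7G8 ratio 0.19 (-0.35 to 0.73).

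**Figure D1:**
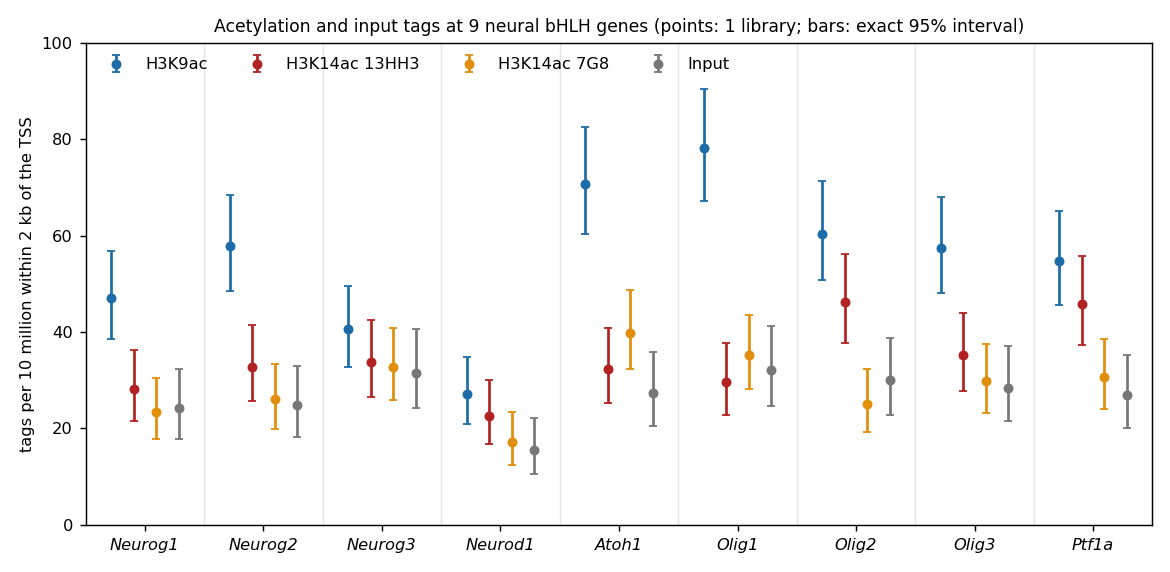
Normalised tags per 10000000 (vertical axis) within 2 kb of the TSS of each gene (horizontal axis) in the 4 libraries; points are single libraries and bars exact 95% intervals. H3K9ac is the highest of the libraries at every gene, from 27.2 at Neurod1 to 78.1 at Olig1, and the H3K14ac libraries lie mostly within the intervals of input.

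Read as calls, H3K9ac was at least 2-fold over input at 6 of 9 members, where 57.2% of the 21550 TSSs with at least 5 input tags were. Its interval lay above input at 8 of 9, against 66.1% of these TSSs, and 8 of 9 had an H3K9ac peak within 2 kb, against 65.2% of all 22367 TSSs. Calls by interval and by peak also depend on the number of tags. The median input was 27.4 normalised tags at the members against 18.1 over all TSSs, and its part in the calls was not tested. By the calls above, the shares of the members for H3K9ac were near those of other genes or somewhat above them. At the stricter peak probability of 1e-10, in place of 1e-05, the order turned, with a peak at 4 of 9 members and at 56.2% of TSSs. Olig2, Olig3 and Ptf1a passed 2-fold narrowly, and with tags not shifted Olig2 and Ptf1a fell below it. For 13HH3 none of 9 members reached 2-fold (16.3% of TSSs), 2 had the interval above input (33.4%) and 4 had a peak (28.1%). For 7G8 none reached 2-fold (16.8%), 1 had the interval above input (32.8%) and none had a peak (25.2%). The calls of intervals depended in part on the window and on how the input was scaled. Within 1 kb of the TSS, the H3K9ac interval lay above input at Neurog3 as well as at the other members. That of 13HH3 lay above input at Olig3 and Ptf1a and no longer at Olig2 (0.25, -0.51 to 1.03). That of 7G8 no longer did so at Atoh1 (0.45, -0.30 to 1.22) or at any other member. The share of all TSSs was not counted for this rule, so the calls within 1 kb cannot be set against other genes. With totals from bins without peaks, the interval lay above input at 9 of 9 members for H3K9ac (73.8% of TSSs), at 4 for 13HH3 (45.6%), with Neurog2 at 0.61 (0.07 to 1.17) and Neurod1 at 0.76 (0.07 to 1.46) added, and still at Atoh1 alone for 7G8 (38% of TSSs). The median log2 ratio of the members was 1.01 for H3K9ac against 1.31 over all TSSs tested, 0.30 against 0.35 for 13HH3, and 0.07 against 0.35 for 7G8.

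In order of normalised tags, H3K9ac ran from Olig1 through Atoh1, Olig2, Neurog2, Olig3, Ptf1a, Neurog1 and Neurog3 to Neurod1. Among the 8 pairs of neighbours in this order, the interval of the ratio of tags excluded no difference for 1, Neurog3 over Neurod1 (log2 0.58, 0.10 to 1.06). This order leaves input aside, and input had 61 tags at Neurog3 and 30 at Neurod1. Over input, Neurog3 was the lower at 0.36 (-0.12 to 0.85) and Neurod1 the higher at 0.81 (0.16 to 1.49), with intervals that overlap. Neighbours could not be told apart in either H3K14ac library. Olig2 (100 tags) and Ptf1a (99 tags) led the order of 13HH3, and Atoh1 (95 tags) and Olig1 (84 tags) that of 7G8.

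**Figure D2:**
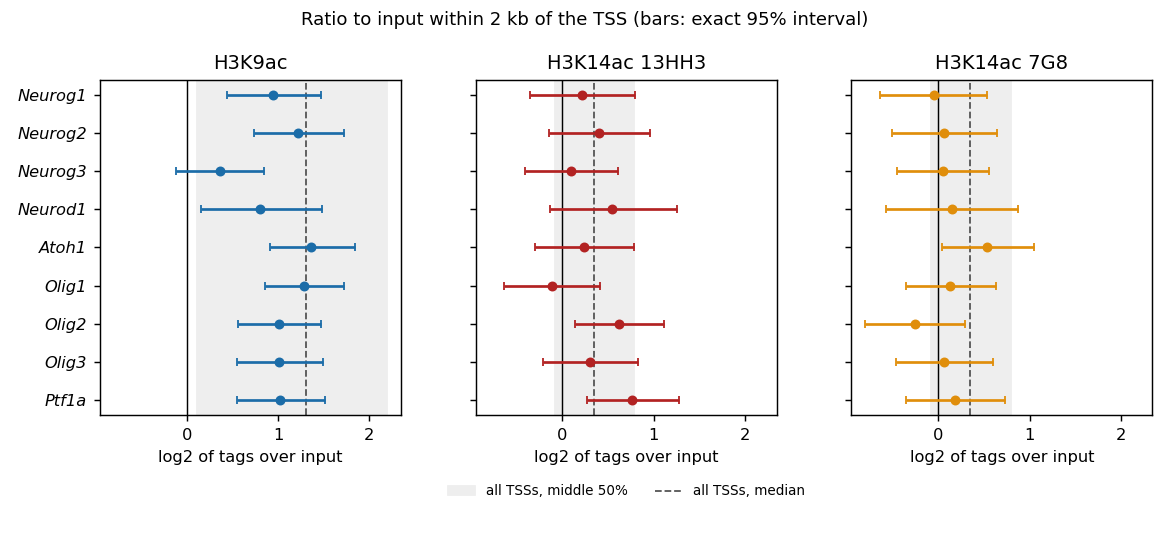
Log2 ratio of ChIP over input (horizontal axis) within 2 kb of the TSS for each gene (vertical axis), 1 panel per antibody; bars are exact 95% intervals, the dashed line is the median and the grey band the middle 50% of the 21550 TSSs tested. All 9 H3K9ac points lie within the band, with 8 of them below the median of 1.31, and, with the library totals used here, only Olig2 and Ptf1a (13HH3) and Atoh1 (7G8) clear input in the H3K14ac panels.

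H3K14ac by 13HH3 was then set against H3K9ac directly, gene by gene. Every member had fewer normalised tags of 13HH3 than of H3K9ac. The log2 ratio of 13HH3 to H3K9ac was lowest at Olig1, -1.40 (-1.83 to -0.98), and at Atoh1, -1.13 (-1.55 to -0.72). At Ptf1a it was -0.26 (-0.65 to 0.13), at Neurod1 -0.26 (-0.83 to 0.30) and at Neurog3 -0.27 (-0.73 to 0.19), where the intervals included 0. With totals from bins without peaks, those of Ptf1a, -0.55 (-0.94 to -0.16), and Neurog3, -0.55 (-1.01 to -0.10), lay below 0. The intervals of Olig1 and Ptf1a, the lowest and the highest of the members, did not overlap in this ratio. Over input, the intervals of these genes overlapped for H3K9ac and also for 13HH3 (-0.64 to 0.41 and 0.27 to 1.28). In the ratio of 7G8 to H3K9ac they overlapped too, at -1.15 (-1.54 to -0.77) for Olig1 and -0.84 (-1.27 to -0.41) for Ptf1a. Olig2 was the lowest there at -1.26 (-1.72 to -0.82). For 13HH3 to H3K9ac, the median of the members was -0.71, against -0.93 over all TSSs tested.

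The antibodies against H3K14ac did not rank the members alike. The log2 ratio of 13HH3 to 7G8 was 0.88 (0.40 to 1.36) at Olig2, with 100 tags against 60, and higher than at 97.6% of TSSs tested. At Ptf1a it was 0.58 (0.13 to 1.04), with 99 tags against 73. Both genes had a 13HH3 peak and no 7G8 peak within 2 kb, but so had Olig3 and Atoh1. The lowest values were -0.30 (-0.77 to 0.16) at Atoh1 and -0.25 (-0.74 to 0.24) at Olig1, whose intervals included 0. The median of the members was 0.26 and that of all TSSs 0.01. Whether this reflects the antibody or the library cannot be told apart with 1 library of each.

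The position of the acetylated chromatin relative to the TSS was examined in 500 bp bins over 10 kb on either side. Summed over the 9 genes, H3K9ac was highest from 500 to 999 bp downstream, with 283 tags against 71 of input. The ratio there was 1.73 (log2), against 1.90 over all TSSs. In the 500 bp just upstream of the TSS the ratio was 0.90, while over all TSSs it was 1.94 there. For 13HH3 the summed ratio was -0.38 in the 500 bp upstream and 1.04 from 500 to 999 bp downstream, against 0.53 and 0.66 over all TSSs. In these sums the acetylation lay more over the transcribed part than in front of it, and single genes differed. Over 2 kb on each side, the H3K9ac difference between the sides had an interval above 0 at Olig1 and Olig3 alone. That of 13HH3 did at Olig1 and Ptf1a alone. How many of all TSSs meet this rule was not counted, so these calls cannot be set against other genes. The upstream ratio was the higher at Atoh1 and Olig2 for H3K9ac and at Neurog2 for 13HH3, with intervals that included 0. From 2 to 5 kb downstream the H3K9ac ratio was -0.03 (-0.27 to 0.22), or 0.48 (0.23 to 0.72) with totals from bins without peaks, and was below that of the first 2 kb under either scaling.

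**Figure D3:**
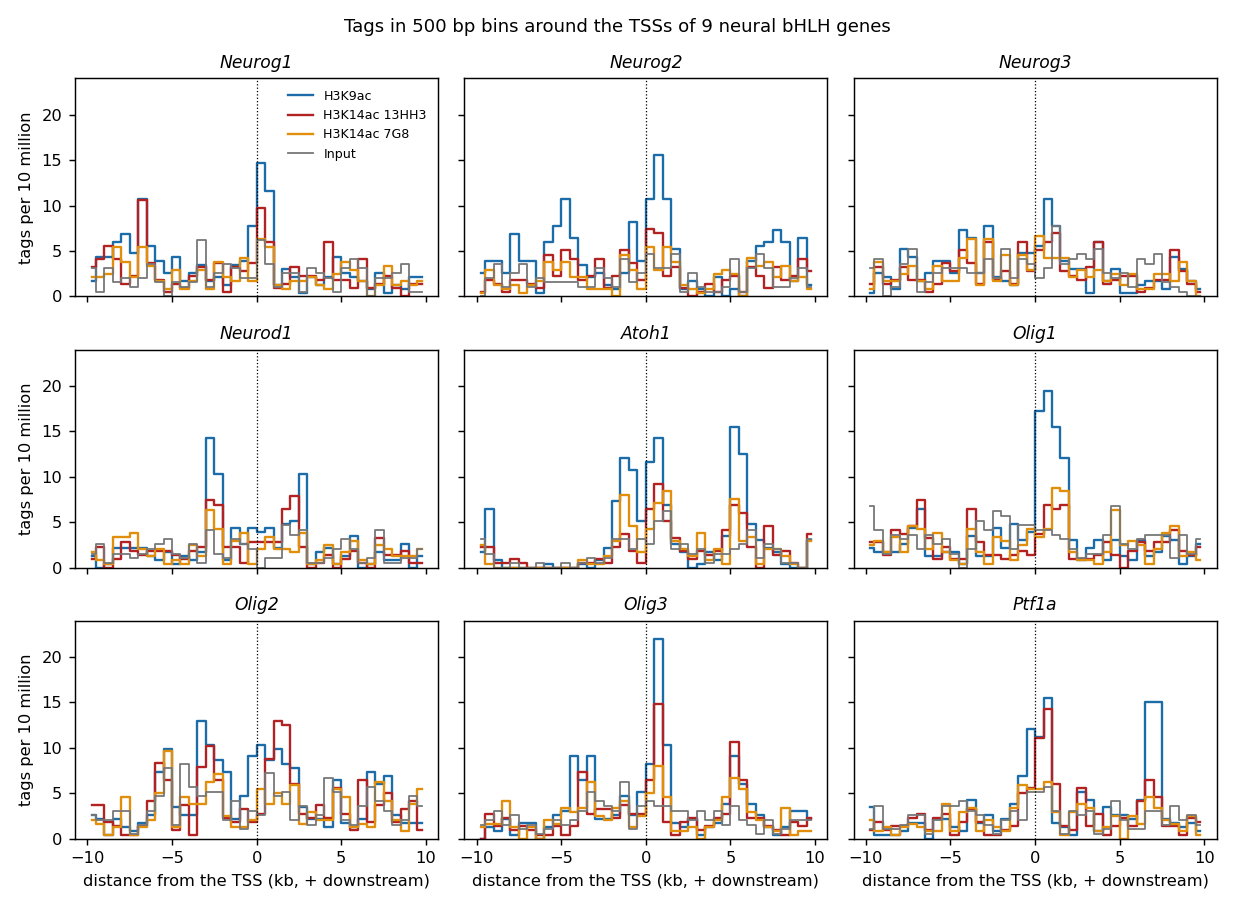
Normalised tags per 10000000 (vertical axis) in 500 bp bins by distance from the TSS in kb (horizontal axis, positive downstream), 1 panel per gene and 1 line per library. The bin with the most H3K9ac tags lies within 2 kb downstream of the TSS at Neurog1, Neurog2, Neurog3, Olig1, Olig3 and Ptf1a, Neurod1 is low at its TSS, and further rises stand about 5 kb downstream of Atoh1, 7 kb downstream of Ptf1a (35 tags in a bin, against 36 near the TSS) and 7 kb upstream of Neurog1.

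Among single bins, the one from 500 to 999 bp downstream of Olig3 held the most H3K9ac tags of any within 10 kb of a member, 51, together with 32 of 13HH3, 19 of 7G8 and 7 of input. The ratios in this coding bin, chosen as the highest and therefore given as a description, were 2.60 (1.46 to 3.99) for H3K9ac and 2.03 (0.82 to 3.45) for 13HH3. At Ptf1a the same bin was the highest one of 13HH3, with 31 tags against 11 of input. The bin 1000 to 1499 bp downstream was the highest for 13HH3 at Olig2, with 28 tags against 9. These bins lie in coding exons and hold 38 (Olig3), 53 (Ptf1a) and 57 (Olig2) CpGs in 500 bp.

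The sides were then compared in 2 kb each, a comparison chosen after the profiles had been seen. Summed over the members, H3K9ac had 392 tags upstream and 753 downstream against 211 and 255 input tags, so that the downstream ratio exceeded the upstream ratio by 0.67 on the log2 scale (0.34 to 0.99). The same difference was 0.96 (0.59 to 1.33) for 13HH3 and 0.39 (0.03 to 0.75) for 7G8. These intervals are of pooled tags and do not measure the spread between genes. Single genes ran from -0.49 (Atoh1) to 2.39 (Olig1) for H3K9ac and from -0.26 (Ptf1a) to 1.42 (Olig1) for 7G8. Sums without Olig1 were not computed. The median of this difference over the members was 0.71, 1.04 and 0.38 for H3K9ac, 13HH3 and 7G8, against 0.26, 0.27 and 0.04 over all TSSs with at least 5 input tags on each side. The downstream ratio was the higher at 7 of 9 members for H3K9ac (60.8% of TSSs), at 8 of 9 for 13HH3 (61.9%) and at 7 of 9 for 7G8 (52.1%). It was at least 2-fold the upstream ratio at 3 members for H3K9ac (21.9%), at 5 for 13HH3 (20.7%) and at 1 for 7G8 (11.9%).

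Olig1 carried the largest difference between its sides in all 3 libraries, and for 7G8 it was the only member whose interval excluded 0. How many of all TSSs have such an interval was not counted. H3K9ac at Olig1 had 32 tags upstream and 149 downstream, 13HH3 had 12 and 52, 7G8 had 25 and 59, and input had 33 and 29. The differences were 2.39 (1.43 to 3.38), 2.28 (1.05 to 3.59) and 1.42 (0.36 to 2.49) on the log2 scale, each higher than at over 95% of TSSs. Upstream of Olig1, 13HH3 was below input (-1.62, -2.71 to -0.63). Olig3 followed for H3K9ac with 1.43 (0.41 to 2.45). Atoh1 and Olig2 went the other way for H3K9ac, at -0.49 (-1.48 to 0.47) and -0.25 (-1.26 to 0.73), with intervals that included 0. CpGs were also more frequent downstream, with 1010 in the 2 kb downstream and 546 upstream over the 9 genes, and 162 against 52 at Olig1. The part of CpG content and of the input profile in these differences was not tested.

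**Figure D4:**
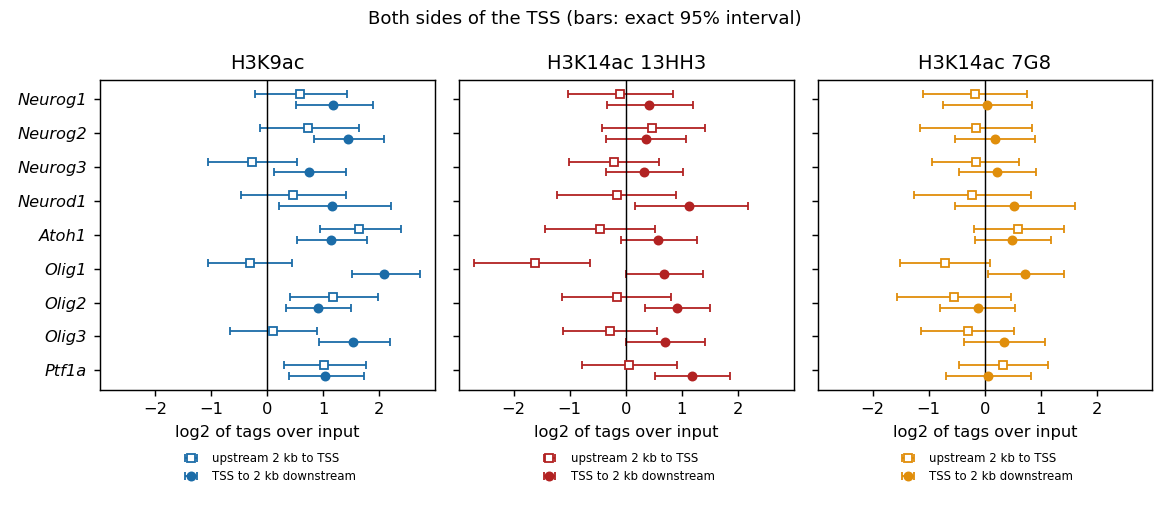
Log2 ratio of ChIP over input (horizontal axis) for each gene (vertical axis) in the 2 kb upstream of the TSS (open squares) and the 2 kb downstream (filled circles), 1 panel per antibody, with exact 95% intervals. At Olig1 the intervals of the sides do not overlap for H3K9ac (-0.31 and 2.10) and 13HH3 (-1.62 and 0.68), and at Ptf1a the H3K9ac points of the sides lie closest together (1.01 and 1.04).

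Peaks were windows of 400 bp with more tags than a local Poisson rate allows at a probability of 1e-05, joined where they touch. Within 10 kb of the 9 TSSs there were 27 H3K9ac peaks, 9 of 13HH3 and 1 of 7G8, of which 14, 5 and 0 lay within 2 kb. The largest was at Olig1, where a single H3K9ac peak of 2050 bp ran from 63 bp upstream of the TSS to 1986 bp downstream and so covered most of this gene, with 149 tags against 30 input tags. At Olig3 the H3K9ac peak covered 135 to 1434 bp downstream with 91 tags against 20, and a 13HH3 peak lay inside it. The 13HH3 peaks within 2 kb, at Atoh1, Olig2, Olig3 and Ptf1a, all had their centre in a coding exon downstream of the TSS. At Neurog3 the only peak within 10 kb was one of H3K9ac in a coding exon, 513 to 912 bp downstream, with 24 tags against 4. With tags not shifted, Neurog3 lost this peak and Neurod1 gained one of H3K9ac and one of 13HH3 within 2 kb, while Atoh1 lost its 13HH3 peak there. At Olig2 an H3K9ac peak was found 1756 to 2205 bp downstream, centred in the 3′ untranslated region (23 tags against 6), although H3K9ac lay above input on both sides of its TSS.

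Further from the TSS, between 2 and 10 kb, 7 of 9 members had an H3K9ac peak (51.2% of TSSs), 4 had a 13HH3 peak (27.6%) and 1 had a 7G8 peak (18.9%). The site 3′ of Atoh1 was the one with a peak in all 3 libraries, and its 7G8 peak rested on 16 tags against 4 of input. The H3K9ac peak there began 3582 bp after the end of the coding sequence and held 73 H3K9ac tags, 31 of 13HH3, 26 of 7G8 and 11 of input, with log2 ratios of 2.47 (1.54 to 3.53), 1.33 (0.30 to 2.47) and 0.94 (-0.13 to 2.10). Atoh1 is known to maintain its own transcription through an enhancer 3′ of its coding sequence, and whether this peak is that enhancer was not tested. The 500 bp bin that exceeded input by most normalised tags within 10 kb of Atoh1 lay at this site in each of the 3 libraries, with 36, 15 and 18 tags against 4 of input. By tags alone it was the highest for H3K9ac, while bins near the TSS held up to 20 tags of 13HH3 and 20 of 7G8. Over the H3K9ac peak 4835 to 5484 bp downstream of Olig3, the intervals of all 3 libraries lay above input. The 7G8 ratio there was 1.22 (0.01 to 2.59), without a 7G8 peak. At Ptf1a an H3K9ac peak from 6161 to 7610 bp downstream held 80 tags against 15, and the start of the lincRNA gene 1810010K12Rik lies at 6165 bp. This peak cannot be assigned to one of these genes.

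Upstream sites were found as well. At Neurog1 an H3K9ac peak about 7 kb upstream (-7076 to -6377 bp from the TSS) held 29 H3K9ac tags, 25 of 13HH3 and 6 of input, and 13HH3 had a peak of its own there. The 13HH3 ratio was 1.90 (0.58 to 3.47) at this site and 0.21 (-0.36 to 0.79) around the TSS of Neurog1, with intervals that overlap. At Neurod1 the H3K9ac peak upstream (-3092 to -2043 bp) held 57 tags against 11, with 13HH3 at 32, and here too 13HH3 had a peak. The upstream site of Neurod1 thus held nearly as many H3K9ac tags in 1050 bp as the 4000 bp around its TSS, which had 63. Neurog2 had an upstream H3K9ac peak (-5503 to -4204 bp) with 53 tags against 7, a ratio of 2.66 (1.51 to 4.04), and no H3K14ac peak within 10 kb. Sequence 2 to 10 kb upstream of Atoh1 gave only 18 input tags, against 57 to 118 at the other members. Little could be seen there beyond an H3K9ac peak (-9639 to -9090 bp) with 18 tags against 4.

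The windows of the members held more CpGs than the median of 85 over all TSSs, with 94 (Neurod1) to 247 (Olig2) in 4 kb. Neurod1 was near the median, above 55.5% of TSSs, and Olig3 was above 69.3%. Input tags were also many, above 75.6% to 92.7% of TSSs at 8 members and above 35.1% at Neurod1. When ranked only against the 9111 TSSs with at least 100 CpGs, a class chosen after the values had been seen, the H3K9ac ratios of the members were higher than only 2.3% (Neurog3) to 22.1% (Atoh1) of that class. The median ratio of these CpG-rich TSSs was 2.03, 88.3% of them were at least 2-fold over input, against 6 of the 8 members in that class, and 96.5% had an H3K9ac peak, as did all 8 of these members. For 13HH3 the members ranked from 9.6% (Olig1) to 58.8% (Ptf1a) and for 7G8 from 8.2% (Olig2) to 47.0% (Atoh1). Neurod1, with 94 CpGs, is not itself of that class. H3K9ac at all 9 genes was therefore in the lower part of the range for CpG-rich starts. For 13HH3, Ptf1a, Olig2 and Neurod1 were near the middle, and the other members ranked lower, from 9.6% (Olig1) to 34.5% (Neurog2). These ranks carry no interval.

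The partners and regulators of these factors were measured in the same way. Over all TSSs tested, 57.2% were at least 2-fold over input for H3K9ac and 16.3% for 13HH3. Of the E proteins, the dimer partners, all 3 genes were at least 2-fold over input for H3K9ac, from 1.47 at Tcf12 to 3.03 at Tcf3 (log2). Of the Id inhibitors, 4 of 4 passed for H3K9ac, from 2.01 at Id4 to 2.74 at Id2, and 3 of 4 for 13HH3. All 4 Id genes had a 7G8 peak, against 25.2% of TSSs, although the 7G8 interval of Id4 included input (0.35, -0.23 to 0.94). Of the Hes and Hey repressors, 6 of 9 passed for H3K9ac, near the share over all TSSs, with Hes1 highest at 2.45 and Heyl lowest at -0.21. Of the Notch pathway genes, 8 of 9 passed, with the DNA-binding effector Rbpj highest at 3.62 and Notch1 lowest at 0.74. The medians for H3K9ac were 2.09, 2.27, 1.32 and 1.87 in these 4 lists and 1.01 in the members.

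Other neural bHLH genes had a lower H3K9ac median than these lists and the members, and the difference was not tested. Of 8 genes, 2 were at least 2-fold over input for H3K9ac (57.2% of TSSs). The log2 ratio ran from -0.75 at Neurod6, a gene of the NeuroD family, to 1.49 at Bhlhe22, with a median of 0.65. For 13HH3, 1 of these 8 reached 2-fold (16.3% of TSSs), Bhlhe22 at 1.21 (0.72 to 1.73), and 5 had a peak (28.1%). For 7G8 none of them reached 2-fold (16.8% of TSSs) or had a peak (25.2%), and the highest was Neurod6 at 0.43 (-0.39 to 1.29). A 13HH3 peak without a 7G8 peak was thus found at 5 of these 8 genes and at 4 of the 9 members, against 13.2% of all TSSs, a combination looked at after the values had been seen.

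Marker genes were used to check the labelled cell type. Of 5 pluripotent cell markers, 4 were at least 2-fold over input for H3K9ac, led by Sox2 at 3.47 and Klf4 at 2.55, with Esrrb at 0.01 at its 5′-most start. Of 5 fibroblast feeder markers, 2 passed for H3K9ac, with Twist1 highest at 1.58, Col3a1 lowest at -0.32 and a median of 0.88. The H3K9ac interval lay above input at 4 of these 5 and 3 had an H3K9ac peak, while none had a 13HH3 or a 7G8 peak. These H3K9ac counts are near the shares over all TSSs (57.2% at 2-fold, 66.1% by interval and 65.2% with a peak) and show neither the presence nor the absence of feeder cells. Of the neural progenitor markers, Pax6 (1.29) and Nes (1.54) both passed for H3K9ac, as did 57.2% of TSSs, whose median was 1.31. They too show neither the presence nor the absence of neural cells. Differentiated or feeder cells among the mES cells could add tags at the members, and their part was not tested.

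**Figure D5:**
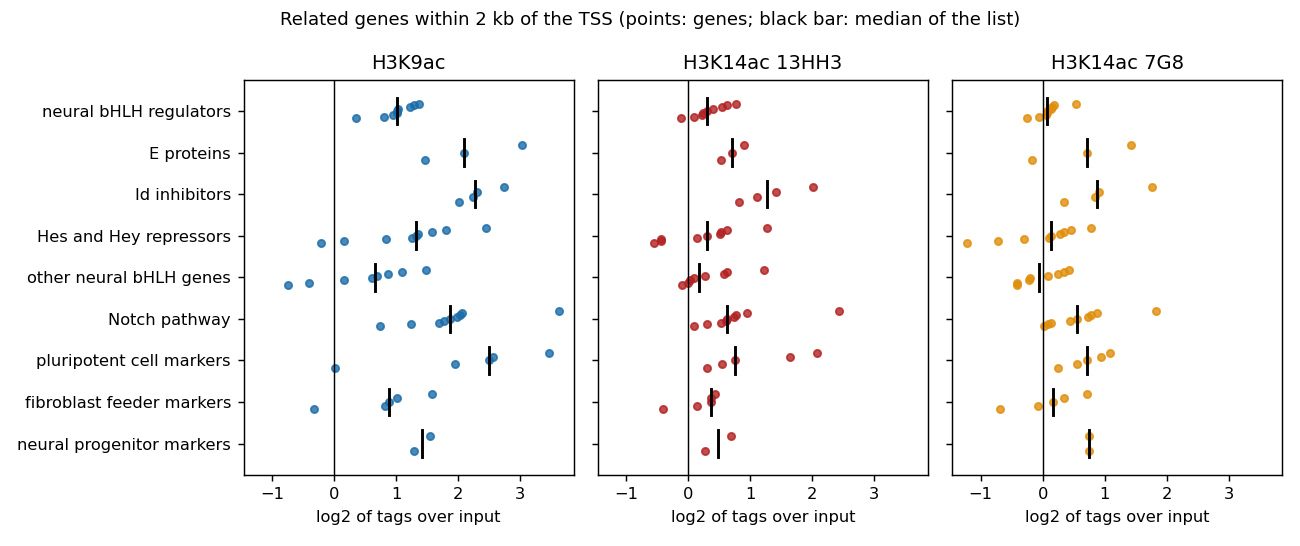
Log2 ratio of ChIP over input within 2 kb of the TSS (horizontal axis) for each gene of the lists (vertical axis), 1 panel per antibody; points are genes and black bars the medians of the lists. For H3K9ac the members lie between 0.36 and 1.37, below all 4 Id inhibitors and all 3 E proteins, and the other neural bHLH genes reach from -0.75 to 1.49.

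The genes whose pattern was most like that of the members were sought among 19379 TSSs outside the lists with at least 20 input tags, by the Euclidean distance of their 3 log2 ratios from the medians of the members. The nearest were Gng11 (a G protein subunit gene, distance 0.006), Gm13157 (0.034) and Erc2 (a gene of presynaptic active zones, 0.044). Gng11 had 75, 43, 40 and 31 tags for H3K9ac, 13HH3, 7G8 and input. With 49 and 35 CpGs, the windows of Gng11 and Gm13157 were poorer in CpGs than that of any member, and that of Erc2, with 120, lay within their range.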

How the data were processed

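Mouse ES cell chromatin was assayed by ChIP-seq. The authors aligned single-end reads to mm9 with ELAND, allowing 1 mismatch, and deposited 1 line per mapped read with its start, end and strand. These positions are not normalized, and the deposited score, constant at 1, was left unused. Repeats of position and strand were found in the 13HH3 library alone (738711 tags, 3.30%) and were reduced to 1. Each 5′ end was moved 100 bp into the fragment. Tags were counted on chromosomes 1 to 19, X and Y, in windows from the 5′ end of the GENCODE vM1 gene record and in 500 bp bins. Intervals are exact Poisson or conditional binomial intervals, and ratios needed 5 input tags. Peaks were windows of 400 bp moved by 50 bp, tested against the highest of the genome mean and the scaled input in 1, 5 and 10 kb, since MACS was not run here. No test over samples was possible with 1 library per antibody. All 9 members are named, lists are given by counts with their highest and lowest gene, and the 3 nearest genes by pattern are named. Peaks and the sites shown as sequence were named after their values were seen. The members and the lists were chosen with earlier results of these data known. Sox1 was not analysed here, and 2 further genes of the planned lists are not reported here. The ratios and the peak caller were tested on simulated data. Alternatives covered windows, repeats, shift, scaling, start sites, totals and thresholds. Python 3.11.15, numpy 2.4.6, scipy 1.17.1, pandas 2.3.3, pyarrow 21.0.0 and matplotlib 3.10.9 were used.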

Additional observations from a re-analysis of the deposited data

How the results depend on the processing

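Of the values for the 9 genes as a group, 103 of 113 under an alternative stayed within 1.5 times the count or within the counting interval, and none changed direction where its interval excluded 0. Some alternatives could change little or nothing here. Repeats were found in the 13HH3 library alone, every member window held more than the alternative least of 10 input tags, and totals over all chromosomes were nearly the same. The tallies of this section are therefore not a measure of robustness. Within 5 kb of the TSS, only Neurog2 and Atoh1 kept a 2-fold H3K9ac ratio (2 members in place of 6, where 44.4% of TSSs reached 2-fold), and within 1 kb 8 did (63.8%). Over 5 kb on each side the summed difference between the sides was 0.23 for H3K9ac and 0.43 for 13HH3. The wider windows add sequence with an H3K9ac ratio of 0.50 (0.28 to 0.72) upstream and -0.03 (-0.27 to 0.22) downstream, both below the 1.30 of the first 2 kb downstream. Scaling the input on 10 kb bins without peaks raised the ratios by 0.50 for H3K9ac, 0.21 for 13HH3 and 0.09 for 7G8 at every gene, which brought the H3K9ac median of the members to 1.51 and, being the same shift for every gene, did not alter comparisons between genes within a library. It put 8 members at 2-fold (67.7% of TSSs) and gave all 9 an H3K9ac peak (69.2%), and it moved the intervals of Neurog3 (H3K9ac), Neurog2 and Neurod1 (13HH3) above input and those of Ptf1a and Neurog3 (13HH3 to H3K9ac) below 0. With this scaling (29.2% of TSSs), and also with tags not shifted (22.4%), 1 member (Atoh1) had a 7G8 peak. At the peak probability of 1e-10, 4 members kept an H3K9ac peak (Neurog2, Atoh1, Olig1 and Olig3), against 56.2% of TSSs, and 0 a 13HH3 peak, against 8.42%; 13HH3 peaks in the genome fell from 47425 to 6585. For 13HH3, 1 member (Olig3) reached 2-fold within 1 kb of the TSS (27.1% of TSSs), and 2 (Olig2 and Ptf1a) reached 1.5-fold within 2 kb (35.8%). Of 189 values of single genes, 176 stayed within their intervals and none that was clear of input changed sign. At 30 to 62 input tags per window, the smallest ratio clear of input was 1.45-fold (7G8 at Atoh1), and smaller ones could not be told from input.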
